A study of Mus musculus with 7 samples.

Results

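The Zfp genes are the mouse genes whose symbols begin with Zfp and a number, with or without a suffix, and 314 of the 12239 genes in the deposited table met that rule. They were measured in tibialis anterior (TA), a fast muscle at the front of the shin, in male FVBN mice aged 5 to 6 months. Libraries came from 4 wild-type (WT) mice and 3 *Mybpc2* knockout (C2-/-) mice, by RNA sequencing of oligo(dT)-selected RNA. *Mybpc2* encodes fMyBP-C, the fast skeletal form of myosin-binding protein C. In the C2-/- allele a Neo cassette between LoxP sites stands in place of exons 2 to 22, and no treatment was given to either group. Whether the cassette had been removed was not stated.

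Most Zfp genes encode proteins with repeated C2H2 zinc fingers, short loops in which a pair of cysteines and a pair of histidines hold a zinc ion while other residues of the loop contact DNA. Many of them also carry a KRAB domain, which recruits the co-repressor TRIM28 (KAP1) and, through it, histone methylation that silences retroelements and imprinted genes. KRAB zinc finger genes arose by local duplication and lie in clusters of related neighbours. The name also covers unrelated proteins, among them the CCCH proteins of the Zfp36 group, which bind AU-rich mRNA and speed its decay.

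A sequence was matched for every member in the GENCODE annotation of GRCm38, for 312 by symbol and for 2 by an older symbol. Coding sequence was found for 310, and 300 of them encoded at least 1 C2H2 finger, with a median of 10 fingers per protein and a maximum of 36 in *Zfp142*. A KRAB-like stretch was found in 140 members, with a median of 12 fingers, against 8 in the other 170 coding members. The class rests on a sequence pattern alone, so other coding members may carry a KRAB domain too. These 2 classes differed in base composition: the median GC content of the transcript was 41.4% for KRAB-like members and 48.9% for the other coding members, against 50.2% for all genes.

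The lines below give, for 5 members among the largest rises and 3 among the largest falls, the coding bases of the first finger that ends in the usual linker. Capitals mark the codons of the zinc-binding cysteines and histidines. Each run holds 78 bases and lies in the last exon of its transcript.
Zfp54: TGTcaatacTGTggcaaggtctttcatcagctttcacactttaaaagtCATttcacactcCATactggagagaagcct
Zfp959: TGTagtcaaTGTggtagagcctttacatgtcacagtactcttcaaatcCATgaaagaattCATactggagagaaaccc
Zfp808: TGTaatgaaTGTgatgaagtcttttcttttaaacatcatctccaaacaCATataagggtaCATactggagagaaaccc
Zfp97: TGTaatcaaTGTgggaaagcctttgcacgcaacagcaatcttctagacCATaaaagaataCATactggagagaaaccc
Zfp960: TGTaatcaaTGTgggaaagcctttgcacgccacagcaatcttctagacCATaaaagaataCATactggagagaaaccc
Zfp771: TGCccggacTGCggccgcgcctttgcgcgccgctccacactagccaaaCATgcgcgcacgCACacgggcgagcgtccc
Zfp775: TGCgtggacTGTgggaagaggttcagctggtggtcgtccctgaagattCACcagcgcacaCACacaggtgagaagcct
Zfp787: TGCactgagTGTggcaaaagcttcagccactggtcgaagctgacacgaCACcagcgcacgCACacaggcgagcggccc

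On GRCm38 these are chr17:21434146-21434223 (+) for *Zfp54*, chr17:55897829-55897906 (+) for *Zfp959*, chr13:62171445-62171522 (+) for *Zfp808*, chr17:17144718-17144795 (+) for *Zfp97* and chr17:17087503-17087580 (+) for *Zfp960*. The 3 from the falls are chr7:127253856-127253933 (+) for *Zfp771*, chr6:48619509-48619586 (+) for *Zfp775* and chr7:6132972-6133049 (-) for *Zfp787*. The finger of *Zfp54* had a GC content of 41.0% and that of *Zfp808* 34.6%, whereas that of *Zfp771* had 73.1%, that of *Zfp787* 62.8% and that of *Zfp775* 57.7%. Not every finger followed this split: those of *Zfp37*, a rise, and *Zfp7*, a fall, had the same GC content, and that of *Zfp954*, a fall, had 47.4%, lower than both. The fingers of *Zfp97* and *Zfp960* differed at 1 of 78 bases. Of all 50-base stretches in the *Zfp960* transcript, 82.7% also occurred in a transcript of another gene, mostly *Zfp97*, so reads could be split between these neighbours. Such sharing exceeded 20% of the stretches in 35 members, and 132 members overlapped another gene on either strand. The use of strand and of multiply mapped reads in counting was not stated.

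The libraries differed in depth. WT replicates 1 to 3 held 14929214 to 15464499 reads, whereas WT replicate 4 held 4683853 and the C2-/- libraries 2613277 to 4917936, so that the deepest libraries were all WT. The median member had 114 reads per library in WT and 29.5 in C2-/-. *Mybpc2*, the targeted gene, held at least 25665 reads in every WT library and at most 8 in every C2-/- library. Fast muscle markers were abundant in every library, and their summed level over 8 genes was 189000 to 218000 CPM (reads of a gene per 1000000 reads after TMM scaling) in WT and 93800 to 117000 in C2-/-, where 0 of 8 rose and 5 fell. The summed level of 3 fibro-adipogenic markers was 314 to 484 in WT and 1170 to 1330 in C2-/-, and 3 of 3 rose. Of the satellite cell markers 1 of 2 rose (summed level 0.683 to 2.73 in WT and 3.73 to 4.47 in C2-/-), and of the tendon markers 1 rose and 1 fell. In the macrophage and Schwann lists 1 marker each fell, and 0 passed the threshold in the endothelium, adipocyte and smooth muscle lists. Over all genes 20.2% rose and 25.0% fell. The marker levels were not adjusted for the base composition of their transcripts. In bulk muscle, fewer cells of a type and less RNA per cell cannot be told apart.

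Values below are log2 CPM, with 0.5 added to each read count, and changes are C2-/- minus WT on that scale with the standard error (SE) of limma. A gene rose or fell if its fold change exceeded 1.5 with an adjusted p of limma under 0.05, written below as past the threshold. Each library was counted as 1 animal, and the p-values measure the spread among these 7 samples alone.

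In C2-/- muscle, 98 Zfp genes rose (31.2%), 48 fell (15.3%) and 168 did not pass the threshold. Among all genes 20.2% rose and 25.0% fell, so the share past the threshold in either direction was close to the background, at 46.5% of Zfp genes against 45.2%, while the balance of directions differed. The median change was 0.36 over the Zfp genes and -0.14 over all genes. Centring each library on its median moved the second value to 0.02. Values of the C2-/- libraries lay wholly above or below all WT values in 153 members (48.7%; 49.3% of all genes), above in 103 (22.6% of all genes) and below in 50 (26.7% of all genes). Without WT replicate 3, 97 Zfp genes passed the threshold, and without WT replicate 1, 2 or 3 the falls numbered 27, 29 and 28. In other zinc finger families, 8 of 39 Zbtb genes rose and 6 fell, with a median of -0.15, and 3 of 17 Zkscan and Zscan genes rose and 5 fell, with a median of -0.11. The difference between families was not tested.

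With the KRAB pattern used here, 56 of the 98 rises lay in the KRAB-like class. Of 140 KRAB-like members 56 rose and 6 fell, with a median change of 0.78. Over all genes 20.2% rose and 25.0% fell, and of those at 40% to 45% GC, the band of the class median, 47.6% rose and 1.34% fell. Without WT replicate 3 the rises numbered 34, and without WT replicate 1 the falls numbered 2. Of the other 170 coding members 42 rose (24.7%) and 40 fell (23.5%), with a median of -0.03. They were spread over all GC bands. At 55% GC and above 24 of 43 fell (55.8%; 57.7% of all genes), and between 50% and 55% 12 of 35 (34.3%; 31.8%). Between 45% and 50% 7 of 38 rose (18.4%; 22.2%) and 3 fell (7.89%; 8.26%). Between 40% and 45% 20 of 35 rose (57.1%; 47.6%), and under 40% 14 of 19 (73.7%; 69.3%). A stricter KRAB pattern, the planned one, placed 85 genes in the class, of which 39 rose and 4 fell. By that pattern 59 rises, the larger part, lay outside the class. The 6 that fell under the first pattern were *Zfp7*, *Zfp12*, *Zfp109*, *Zfp212*, *Zfp316* and *Zfp777*, and their transcripts had GC contents of 49.0% to 59.1%. Of the 4 members with no coding sequence, the pseudogenes *Zfp862-ps* and *Zfp783* fell.

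The direction of change followed the base composition of the transcript. Among the 71 members under 40% GC, 43 rose (60.6%) and 0 fell, and among all genes of that band 69.3% rose. Between 40% and 45% GC, 43 of 87 members rose (49.4%; 47.6% of all genes) and 1 fell. Between 45% and 50%, 9 of 58 rose (15.5%; 22.2% of all genes) and 4 fell (6.90%; 8.26%). Between 50% and 55%, 3 of 50 rose (6.00%; 7.27% of all genes) and 17 fell (34.0%; 31.8%). At 55% GC and above, 0 of 48 members rose and 26 fell (54.2%), and 57.7% of all genes of that band fell. Across members Spearman's rho between change and GC content was -0.74 (n = 314 genes), against -0.68 over 12174 genes. The points share the same 7 libraries and are not independent, and the value is a description. Within the band under 40% GC, 29 of 52 KRAB-like members rose (55.8%) and 14 of 19 other coding members rose (73.7%).

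**Figure D1:**
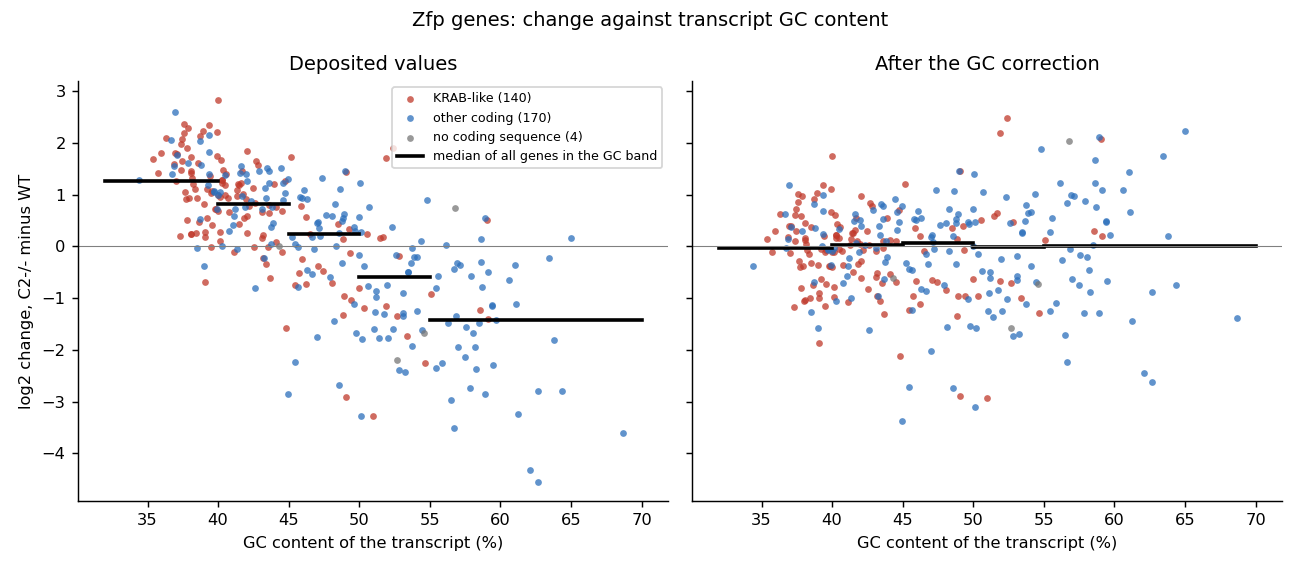
Log2 change (C2-/- minus WT) of each Zfp gene against the GC content of its transcript in percent, with KRAB-like members in red, other coding members in blue and members with no coding sequence in grey. Black bars give the median of all genes in each GC band. On the deposited values (left) both classes slope from rises below 45% GC to falls above 55% GC, and after the GC correction (right) the slope is gone.

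A correction that replaced the GC trend of each library by the mean trend of the 7 libraries was therefore set beside the deposited values. It also gave every library the same mean over all genes, which moved their mean change from -0.26 to 0. The median deviation over all genes was then 0.13 in C2-/- replicate 2. After the correction, 20 Zfp genes were higher and 20 lower at the same threshold, 12.7% together against 20.6% of all genes (12.3% higher and 8.33% lower), and the median change was -0.03. The KRAB-like class then held 8 higher and 5 lower members with a median of -0.05, and the other coding class 12 higher and 15 lower with a median of 0.01 and a mean of -0.11. A genotype effect that itself follows GC content and a GC trend of the libraries cannot be told apart by this correction.

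By library, the KRAB-like genes separated the genotypes on the deposited scale. Their median deviation from the mean of the 7 libraries was -0.38 to -0.25 in the WT libraries and 0.46, 0.69 and 0.38 in C2-/- replicates 1 to 3. WT replicate 4, the shallowest WT library, stood at -0.28, and the part of depth in this separation was not tested. The other coding members overlapped, with -0.05 to 0.13 in WT and -0.02 to 0.17 in C2-/-. After the GC correction the KRAB-like medians overlapped too, at -0.15 to 0.16 in WT and -0.13 to 0.27 in C2-/-. WT replicate 4 was then the lowest library (-0.15), with 0.08 or more in the other WT libraries.

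**Figure D2:**
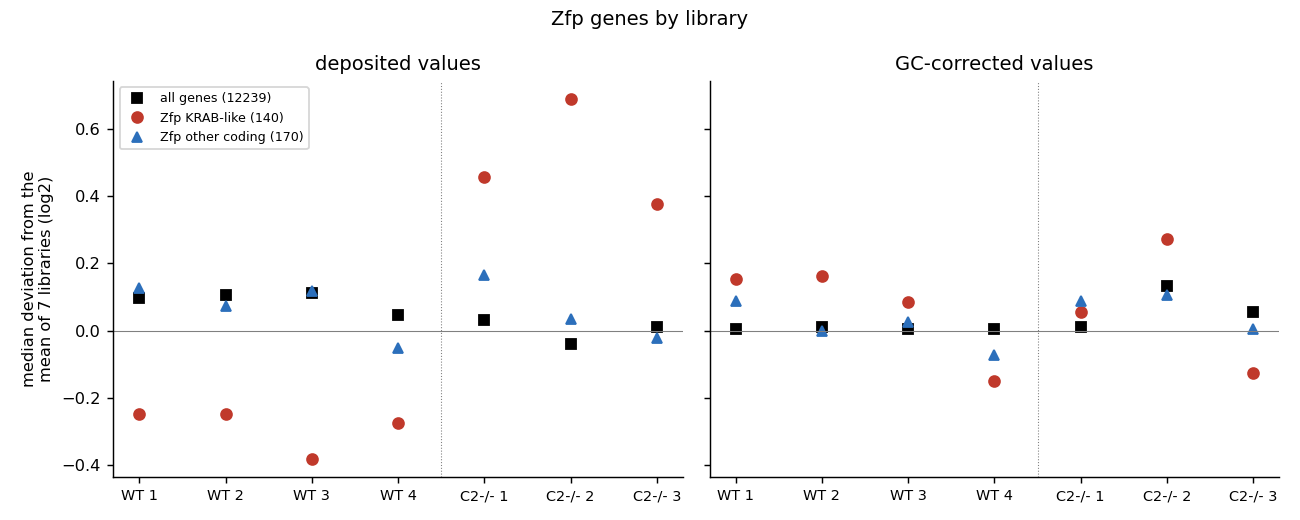
Median deviation of each gene group from the mean of the 7 libraries (log2 scale) in every library, for all genes (squares), KRAB-like Zfp genes (circles) and other coding Zfp genes (triangles). On the deposited values the KRAB-like genes lie below -0.2 in all 4 WT libraries and above 0.3 in all 3 C2-/- libraries, and on the GC-corrected values the genotypes overlap.

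The 10 largest rises among members whose C2-/- values lay above all WT values were led by *Zfp54*, a KRAB-like gene with 12 fingers. *Zfp54* stood at 0.49, 0.59, 0.34 and 0.56 in WT replicates 1 to 4 and at 3.48, 3.31 and 3.17 in C2-/- replicates 1 to 3. The replicates of each genotype lay close together, and the change was 2.83 ± 0.41 (SE; limma adjusted p = 0.000884). Its reads were 6 to 22 in WT and 26 to 43 in C2-/-.

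*Zfp959* had values of 1.98, 1.97, 1.80 and 3.09 in WT and 4.49, 4.88 and 4.29 in C2-/-, a change of 2.34 ± 0.39 (limma adjusted p = 0.00142). WT replicate 4 lay between the other WT libraries and the C2-/- libraries. *Zfp944*, the most abundant of the 10, had 3.37, 3.48, 3.10 and 4.36 in WT and 5.31, 6.16 and 5.69 in C2-/- (2.14 ± 0.34; limma adjusted p = 0.00114). Here, too, WT replicate 4 was the highest WT library. Of the 10, these 3 genes passed on the GC-corrected values too, with changes of 1.74 for *Zfp54*, 1.19 for *Zfp959* and 0.92 for *Zfp944*.

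The near-identical neighbours *Zfp97* and *Zfp960*, whose fingers are printed above, rose by 2.20 ± 0.42 and 2.29 ± 0.69. *Zfp97* had 0.57 to 0.73 in WT and 2.75 to 3.01 in C2-/-, and *Zfp960* had -1.55 to 0.31 and 0.92 to 2.71. Because the reads of the pair may be exchanged, the 2 rises are not separate measurements. *Zfp182*, *Zfp709* and *Zfp37* rose by 2.23, 2.20 and 2.15, and *Zfp808*, with 22 fingers, by 2.09. Of the *Zfp808* transcript 43.1% of stretches occurred in other genes. *Zfp953* rose by 2.60 ± 0.95 (limma adjusted p = 0.0457), with 20, 14, 21 and 0 reads in WT and 12, 21 and 9 in C2-/-. Without WT replicate 1, 2 or 3, or C2-/- replicate 1 or 2, *Zfp953* did not pass the threshold (2.11 to 2.95), and without WT replicate 4 its change was 1.74. *Zfp960* did not pass without WT replicate 3 (2.31) or C2-/- replicate 2 (1.85). The GC contents of the 10 transcripts were 36.3% to 40.01%.

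Among members whose C2-/- values lay below all WT values and whose WT mean was at least 1, the 10 largest falls had transcripts of 50.1% to 68.7% GC, and 9 of these lay outside the KRAB-like class. *Zfp109*, a KRAB-like gene, and *Zfp773*, with transcripts under 50% GC and WT means of 0.70 and 0.11, had larger falls (-2.92 and -2.85) than the last 2 of the 10. *Zfp385a*, a protein that binds RNA and p53, had 75, 83, 93 and 33 reads in WT and 2, 0 and 0 in C2-/-. Its values were 2.30, 2.48, 2.61 and 2.93 in WT and -0.22, -2.42 and -3.27 in C2-/-, with a fitted change of -4.55 ± 0.75 (limma adjusted p = 0.00142). As every C2-/- library had 3 reads or fewer, it was at least 5.34-fold lower, taking 3 reads in the shallowest C2-/- library as the floor. Floors of this kind cover counting error only.

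*Zfp219*, a C2H2 transcription factor, had 4.71, 4.42, 4.64 and 2.93 in WT and 1.55, -2.42 and 0.43 in C2-/-, a change of -4.32 ± 0.85 (limma adjusted p = 0.00307). The C2-/- libraries held 8, 0 and 6 reads and WT replicate 4 held 33, below the other WT libraries. *Zfp775* had 3.87, 3.77, 3.93 and 3.01 in WT and 1.37, -0.83 and -0.10 in C2-/- (-3.50 ± 0.56; limma adjusted p = 0.00122). Its fall did not rest on 1 library, with a range of -4.11 to -3.01 when each was left out.

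*Zfp771*, whose finger had the highest GC content of those printed, had 151, 144, 138 and 18 reads in WT and 5, 0 and 3 in C2-/- (-3.61 ± 0.76). *Zfp954*, *Zfp523* and *Zfp687* fell by 3.29, 3.24 and 2.97 on the log2 scale. *Zfp687* belongs with *Zfp592* and *Zfp532* to a chromatin-bound zinc finger complex. *Zfp524*, a telomere-binding protein, and *Zfp787* had changes of -2.85 ± 0.99 and -2.80 ± 0.80. *Zfp524* did not pass the threshold without any 1 of the 4 WT libraries (-2.97 to -2.75), and 46.0% of its stretches occurred in other genes. Without C2-/- replicate 3 the changes of *Zfp954* and *Zfp524* were -2.11 and -1.37, and without C2-/- replicate 2 that of *Zfp787* was -1.55. After the GC correction, 5 of the 10 falls were past the threshold, *Zfp385a* (-2.63), *Zfp219* (-2.45), *Zfp775* (-2.23), *Zfp954* (-3.10) and *Zfp687* (-1.71). *Zfp771* (-1.38), *Zfp523* (-1.44), *Zfp524* (-1.29), *Zfp787* (-0.88) and *Zfp7* (-2.94) were not.

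*Zfp7*, the KRAB-like gene among these falls, had 21, 11 and 16 reads in WT replicates 1 to 3, 72 in the shallower WT replicate 4 and 0, 0 and 1 in C2-/-. The fitted change was -3.28 ± 1.05 (limma adjusted p = 0.0279), and at the floor it was at least 4.35-fold lower. That bound rests on WT replicate 4, since the mean of WT replicates 1 to 3 was under the floor of the shallowest C2-/- library. The call was lost without WT replicate 1 (-3.47) or C2-/- replicate 1 (-3.12) or 2 (-3.18).

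**Figure D3:**
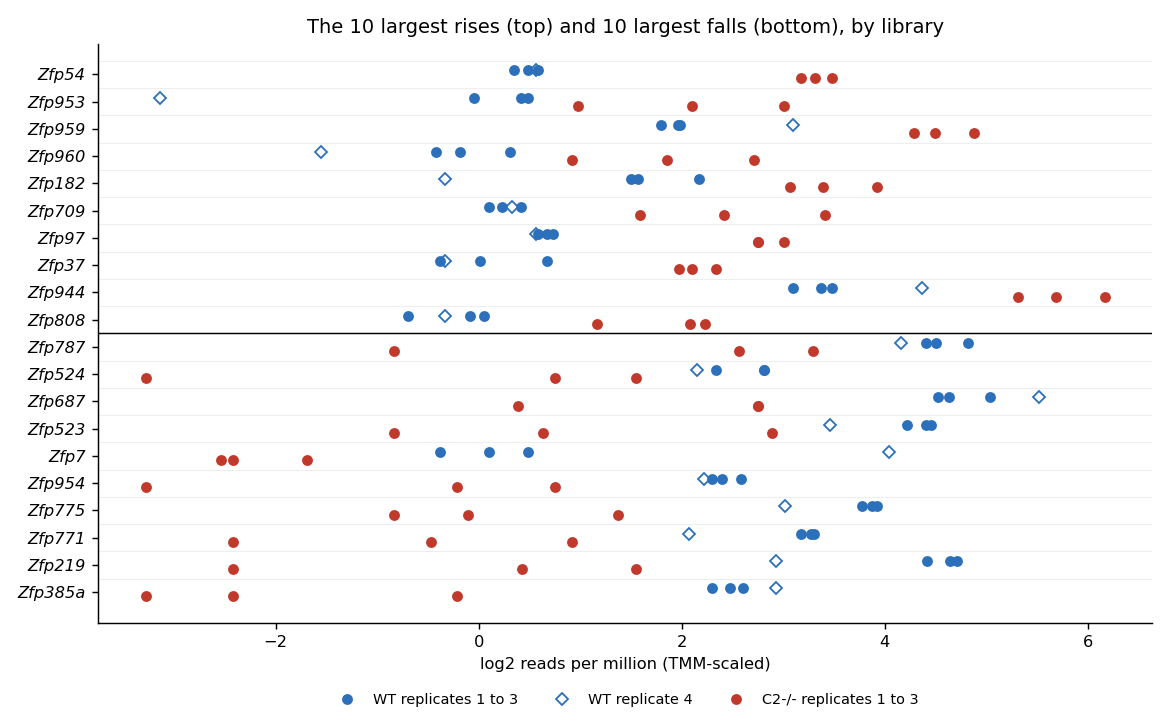
Log2 CPM (TMM-scaled) of the 10 Zfp genes with the largest rises (above the line) and the 10 with the largest falls among members with a WT mean of at least 1 (below it), 1 point per library. Open diamonds mark WT replicate 4, which is the lowest WT point for *Zfp953* and the highest for *Zfp7*, and C2-/- points of the falls reach the level of 0 to 3 reads.

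On the deposited and on the GC-corrected values alike, 12 Zfp genes were higher (3.82%; 7.3% of all genes) and 14 lower (4.46%; 6.27% of all genes), together 8.28% against 13.6%, and 0 were past the threshold in opposite directions. Among the 12, the largest corrected changes belonged to *Zfp764* and *Zfp69*. *Zfp764* had 0.84, 0.93, 1.08 and 2.29 in WT and 3.13, 3.85 and 2.56 in C2-/-. It was higher in every C2-/- library, with a change of 1.90 ± 0.51 (limma adjusted p = 0.0135) and of 2.48 after the correction. *Zfp69*, a KRAB gene linked in mice to fat storage in the liver and diabetes, had 0.84, 0.05, 0.67 and 0.32 in WT and 1.71, 2.54 and 2.28 in C2-/-. Its genotypes did not overlap, with changes of 1.70 ± 0.50 (limma adjusted p = 0.0191) and 2.19. Without WT replicate 2 *Zfp69* did not pass (1.56).

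*Zfp809*, which silences retroviral DNA by binding the site where reverse transcription is primed, had 2.18, 2.04, 1.72 and 2.07 in WT and 3.69, 3.73 and 3.74 in C2-/-. The C2-/- libraries were almost equal and all above WT, with changes of 1.72 ± 0.33 (limma adjusted p = 0.0027) and 1.21 after the correction. *Zfp36l1*, an mRNA decay factor, had 5.04, 4.88, 5.39 and 6.35 in WT and 6.77, 6.95 and 6.88 in C2-/-. Its change was 1.45 ± 0.31 (limma adjusted p = 0.00479) and, after the correction, 1.46.

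Of the 14 lower on both scales, *Zfp773* had 22, 22, 27 and 1 reads in WT and 0 in every C2-/- library, so that it was at least 1.09-fold lower. The fitted change was -2.85 ± 0.87, and the call was lost without WT replicate 1, 2 or 3 (-2.70, -2.69 and -2.61). *Zfp954* had 80, 89, 75 and 20 reads in WT and 2, 4 and 0 in C2-/-, and its change was -3.10 after the correction. *Zfp41* had 48 to 75 reads in WT and 1, 1 and 8 in C2-/-, with changes of -2.68 ± 0.65 and -2.73. *Zfp109* and *Zfp398* had 3 reads or fewer in every C2-/- library and were at least 1.45-fold and 1.82-fold lower. The call of *Zfp109* was lost without WT replicate 1 (-2.72), and that of *Zfp398* without WT replicate 1, 2 or 3 (-2.31, -2.15 and -2.17).

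The 5 members with the highest WT values moved in both directions. *Zfp106*, an RNA-binding protein needed to maintain motor neurons and muscle, had 6612 to 20441 reads in WT and, per kilobase of transcript, the highest WT level of all members (7.22 log2 CPM per kilobase, against a median of 1.15). Its values were 10.33 to 10.56 in WT and 10.70 to 11.11 in C2-/-, all above WT, but its change of 0.48 ± 0.17 was under the fold minimum. *Zfp91*, a ubiquitin ligase, had 8.14, 8.33, 8.24 and 8.67 in WT and 9.46, 9.61 and 9.29 in C2-/-. It rose by 1.11 ± 0.17 (limma adjusted p = 0.00108) and was past the threshold after the correction as well (1.06).

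*Zfp651* had 7.67, 7.60, 7.76 and 6.66 in WT and 6.28, 5.23 and 5.72 in C2-/- and fell by 1.68 ± 0.31 on the log2 scale (limma adjusted p = 0.00233). After the correction its change was -0.22, not past the threshold. *Zfp207*, a spindle-assembly protein, and *Zfp706* rose by 0.76 and 0.93 (0.10 and 0.22 after the correction, not past the threshold), but WT replicate 4 (7.26 and 7.08) lay within the C2-/- values (7.10 to 7.34 and 6.95 to 7.29). Both calls were lost when any library other than WT replicate 4 was left out (0.66 to 0.82 for *Zfp207* and 0.81 to 0.99 for *Zfp706*).

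Members with known roles were read in 5 lists. In the CCCH mRNA decay list *Zfp36l1* rose, *Zfp36* had a change of -0.21 ± 0.68 with overlapping genotypes and *Zfp36l2* one of 0.89 ± 0.42 (limma adjusted p = 0.101). The change of *Zfp36* was -0.95 without C2-/- replicate 3 and 0.45 without C2-/- replicate 2. That of *Zfp36l2* was 0.56 without WT replicate 4. After the GC correction *Zfp36l2* was past the threshold as higher (1.89), as was *Zfp36l1*, while *Zfp36* was not (0.67). In the list of RNA, ribosome and protein-modification roles, 4 of 12 measured genes rose and 3 fell, with a median of 0.33 and a mean of -0.33, and 2 were higher and 1 lower after the correction. The share past the threshold was 58.3% against 45.2% of all genes, and 25.0% against 20.6% after the correction. *Zfp326*, which couples transcription to splicing, rose by 1.51 ± 0.23 and was past the threshold on both scales, and *Zfp638*, an RNA-binding protein, rose by 1.04 ± 0.27 (-0.03 after the correction). *Zfp598*, the ubiquitin ligase that marks collided ribosomes, fell by 1.13 ± 0.26 on the log2 scale, and its corrected change of 0.49 had the other sign. *Zfp346*, which binds double-stranded RNA, fell by 1.60 ± 0.45, and its corrected change of -1.02 was not past the threshold. The ribosome assembly factors *Zfp593* and *Zfp622* had changes of -1.35 ± 0.54 (limma adjusted p = 0.0628) and -0.87 ± 0.35 (limma adjusted p = 0.0621). *Zfp593* passed without C2-/- replicate 2 (-1.89) and had -0.71 without C2-/- replicate 1, and *Zfp622* passed without WT replicate 4 (-1.06) or C2-/- replicate 3 (-1.07). The changes of the SUMO ligase *Zfp451* and the splicing factor *Zfp830* were 0.41 and 0.25, and *Zfp451* passed without C2-/- replicate 2 (0.89) and had 0.07 without C2-/- replicate 3.

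Of 6 measured members that repress retroelements or keep imprints, 4 rose and 0 fell. Over all genes 20.2% rose and 25.0% fell, and of those at 40% to 45% GC, the band that holds the list's median of 42.7%, 47.6% rose. *Zfp445*, which maintains imprinting, had 5.72, 5.68, 5.57 and 6.09 in WT and 6.45, 6.97 and 7.24 in C2-/-. All C2-/- libraries were higher, by 1.12 ± 0.22 (limma adjusted p = 0.00302) and by 0.40 after the correction, not past the threshold. *Zfp708* and *Zfp932*, which bind retroelement repeats, rose by 1.91 ± 0.41 and 1.47 ± 0.31, with corrected changes of 0.59 and 0.11 that were not past the threshold. Every 50-base stretch of *Zfp708* (100%) also occurred in an overlapping readthrough gene, and 45.2% of those of *Zfp932* in other genes. *Zfp568*, a repressor of a placental *Igf2* transcript, and *Zfp961* had changes of -0.38 and 0.26. *Zfp57* was not analysed here. *Zfp809*, described above, was the 1 member of this list that passed on both scales.

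In the fat and mesenchymal list, 0 of 6 members rose or fell, against 45.2% of all genes. *Zfp423*, a factor of preadipocyte commitment, had 3.80, 4.26, 4.45 and 3.46 in WT and 3.57, 3.56 and 3.55 in C2-/-. Its values overlapped, with a change of -0.44 ± 0.30 (limma adjusted p = 0.253), while the 3 fibro-adipogenic markers rose. After the GC correction its change was 0.84, not past the threshold, and with a further correction for length 0.91, past it. The changes of *Zfp467*, *Zfp516*, *Zfp521*, *Zfp217* and *Zfp395* ran from -1.31 to 0.27, and *Zfp217* passed without C2-/- replicate 1 (-1.78). After the GC correction the median of the list moved from -0.23 to 0.82. On that scale 1 of 6, *Zfp395*, was past the threshold as higher (1.02), 16.7% against 20.6% of all genes in either direction.

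In the list of 14 chromatin and promoter regulators without KRAB, 4 rose and 4 fell, 57.1% together against 45.2% of all genes. After the correction 1 of 14 was past the threshold, 7.14% against 20.6%. *Zfp644*, a partner of a histone methyltransferase, had 4.50, 4.51, 4.60 and 3.98 in WT and 5.73, 5.86 and 5.82 in C2-/- (1.41 ± 0.21; limma adjusted p = 0.00101). *Zfp292*, *Zfp143*, which binds promoters at chromatin loops, and *Zfp148* rose by 1.37, 1.03 and 0.73. *Zfp687*, *Zfp335*, *Zfp410*, which drives transcription of *Chd4*, and *Zfp592* fell by 2.97, 1.14, 1.12 and 0.75 on the log2 scale. Of these 8, *Zfp687* was past the threshold after the correction (-1.71). *Zfp335* and *Zfp148* had corrected changes of the other sign (0.47 and -0.37). *Zfp335* lost the call without any 1 of WT replicates 1 to 3 or C2-/- replicates 1 and 3 (-1.11 to -0.87), *Zfp410* without any 1 of WT replicates 1 to 3 or C2-/- replicates 2 and 3 (-1.13 to -0.68), *Zfp592* without WT replicate 1 (-0.80) or 3 (-0.76) or C2-/- replicate 3 (-0.70), and *Zfp148* without C2-/- replicate 1 (0.67). The other 6 members, *Zfp281*, *Zfp384*, *Zfp407*, *Zfp462*, *Zfp532* and *Zfp609*, ranged from -1.44 to 0.72. Of these, *Zfp407* passed without C2-/- replicate 1 (-2.16) and had -0.78 without C2-/- replicate 2, *Zfp384* passed without C2-/- replicate 1 (-0.66), and *Zfp281* and *Zfp609* passed without WT replicate 4 (1.20 and 0.63).

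The position of the genes was read in 8 clusters of 8 or more members with gaps of at most 1000000 bases, which held 108 members. The cluster of 19 members at chr17:21008903-23599487, with a median GC content of 38.5%, had the most rises. There 12 rose, among them *Zfp54* and *Zfp944*, and 1, *Zfp213*, fell, whose transcript had 59.5% GC, with a median change of 1.70. Of all genes under 40% GC, 69.3% rose. In the cluster of 22 members at chr13:67038596-67827002, 5 rose and 0 fell (median 0.52). Its median GC content was 39.0%, in that same band. In that of 12 at chr17:32765496-33631779, 5 rose and 0 fell (median 0.95). The median GC content there was 41.0%, and 47.6% of all genes at 40% to 45% GC rose. Near the other end, 8 of 10 members at chr6:47835661-48623227 fell and 0 rose, with a median change of -1.94 and the highest median GC content of the 8 clusters. Its transcripts lay on both sides of 55% GC. Of all genes at 55% GC and above 57.7% fell, and of those at 50% to 55% GC 31.8% fell and 7.27% rose. At chr7:127233061-127885996, 6 of 10 fell and 1, *Zfp764*, rose. The median GC content there was 53.5%, with 68.7% in *Zfp771*.

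The remaining clusters on chromosome 7 held 14, 12 and 9 members, of which 3, 1 and 0 rose and 0, 3 and 4 fell. Their median GC contents were 46.7%, 49.9% and 45.8%. Of all genes at 45% to 50% GC 22.2% rose and 8.26% fell, but some members of these clusters lay outside that band. After the GC correction 2 of 19 members were higher in the first cluster and 0 were past the threshold in that of chromosome 13, whose median turned to -0.66. The cluster on chromosome 6 had 3 of 10 lower, with a median of -0.99. Over all genes 12.3% were higher and 8.33% lower on that scale. Neighbours share sequence and may share reads, so members of a cluster are not independent.

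**Figure D4:**
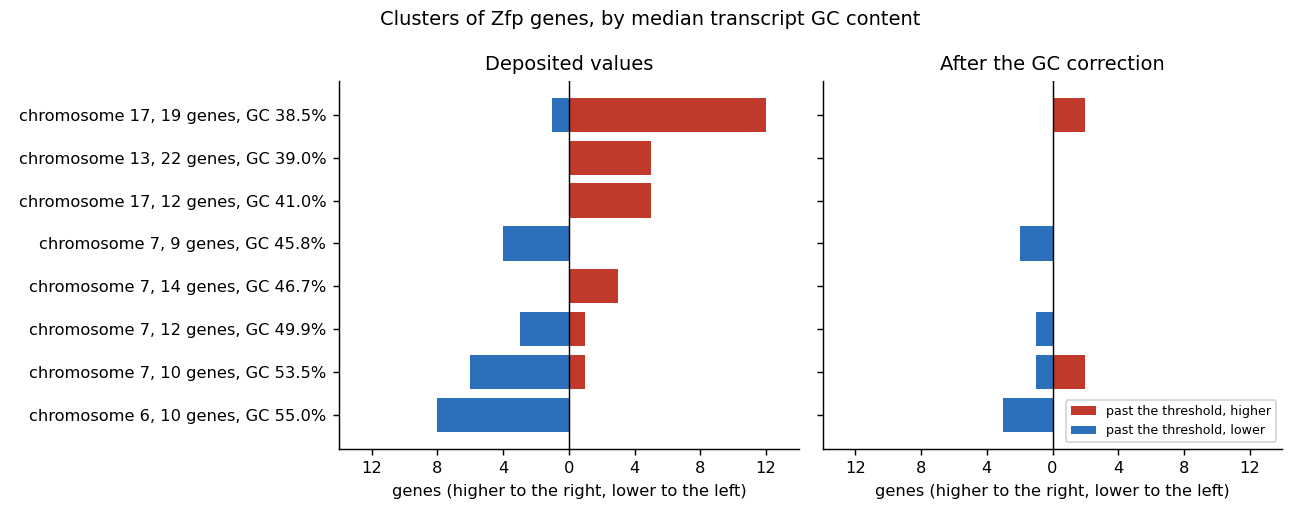
Number of Zfp genes past the threshold as higher (red, to the right) and lower (blue, to the left) in each of the 8 clusters, ordered by the median GC content of their transcripts, on the deposited values and after the GC correction. The cluster of 19 genes on chromosome 17 has 12 higher genes and that of 10 genes on chromosome 6 has 8 lower, and these fall to 2 and 3 after the correction.

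KRAB zinc finger proteins act through TRIM28, the histone methyltransferase SETDB1, heterochromatin proteins, the NuRD deacetylase complex and the HUSH complex. Of 27 measured genes in a list of these complexes and 4 other silencing genes (*Dnmt1*, *Dnmt3a*, *Smarcad1* and *Morc3*), 11 rose and 7 fell, 66.7% together against 45.2% of all genes, with a median change of 0.00. Without those 4, of which 2 rose and 2 fell, 9 of 23 rose and 5 fell (60.9%). The median WT value of the 27 was 4.68, against 4.00 over all genes, and the shares were not matched for abundance. *Trim28* had 5.75, 5.86, 5.87 and 5.38 in WT and 4.36, 4.32 and 4.73 in C2-/-. It was lower in every C2-/- library, with a fall of 1.24 ± 0.21 on the log2 scale (limma adjusted p = 0.00162), but its corrected change was 0.39 and not past the threshold. *Setdb1* had 4.30, 4.36, 4.41 and 4.50 in WT and 4.20, 3.89 and 3.69 in C2-/-, without passing the threshold (-0.46 ± 0.23; limma adjusted p = 0.126).

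The HUSH genes *Mphosph8*, *Fam208a* and *Pphln1* rose by 1.58, 1.32 and 1.23 and had corrected changes of 0.77, 0.12 and 0.58 that were not past the threshold. Of the 27, 3 were higher and 3 lower after the correction, 22.2% against 20.6% of all genes. *Mbd2*, a reader of methylated DNA in NuRD, had 6.06, 6.34, 6.16 and 7.67 in WT and 8.04, 8.05 and 7.98 in C2-/-. Its rise was 1.47 ± 0.34 (limma adjusted p = 0.00654) and 2.72 after the correction. *Mta3*, another NuRD subunit, changed by 0.86 and 1.44, and the heterochromatin protein gene *Cbx1* by -1.58 and -1.78, past the threshold on both scales.

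**Figure D5:**
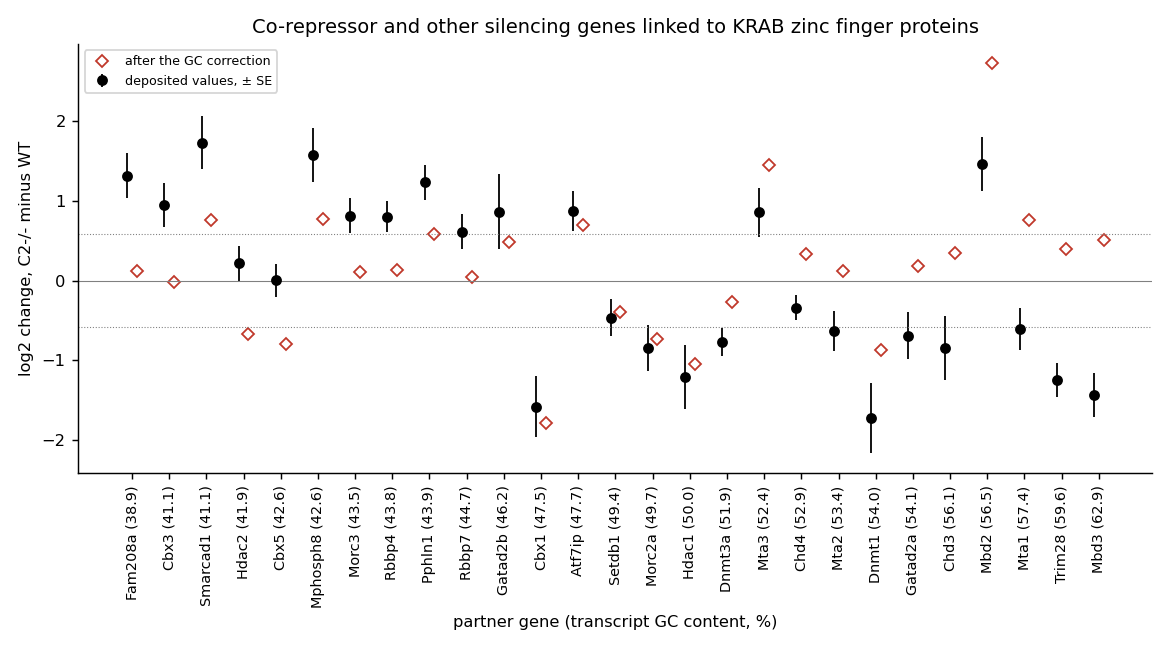
Log2 change (C2-/- minus WT) of 27 genes, the measured ones of the complexes that KRAB zinc finger proteins recruit and 4 other silencing genes, ordered by transcript GC content, on the deposited values (filled circles, ± SE) and after the GC correction (open diamonds). Dotted lines mark a fold change of 1.5. *Trim28* lies at -1.24 and 0.39, whereas *Mbd2*, *Mta3* and *Cbx1* lie beyond the lines on both scales.

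WT replicate 4 was the WT library nearest in depth to the C2-/- libraries. With that library left out of the fit, 155 Zfp genes were past the threshold, 105 higher and 50 lower. The mean of the C2-/- libraries stood on the same side of WT replicate 4 in 144 of the 155 (92.9%; 92.8% of the 6136 genes called). The same C2-/- libraries made these calls, so the shares are a description and no test of depth. The median size of the difference was 1.19 from WT replicate 4 and 1.51 from the other WT libraries (0.99 and 1.46 over all genes called). In 43 of the 155 (27.7%; 33.0% of all genes called) WT replicate 4 stood closer to C2-/- than to WT replicates 1 to 3. On the GC-corrected values the direction held in 40 of 49 members (81.6%; 89.5% of all genes called). The part of depth, of the differences in muscle and fibro-adipogenic markers and of base composition in the changes of the Zfp genes was not tested.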

How the data were processed

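The authors removed low-quality and adaptor reads, aligned what remained with HISAT (GRCm38.p6), counted reads per gene with featureCounts 1.5.2 and scaled them by TMM. They deposited log2 values per library for 12239 genes. The filter that left these genes was not stated. A second table of the authors, with their own fold changes, p-values, adjusted p-values, t statistics and log-odds, was not used. From the deposited log2 values, whole reads were recovered for 100% of values (largest departure 2.15e-08 reads). The members, gene lists and tests were chosen with earlier results of these data known.

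Changes were tested with limma 3.58.1 in R 4.3.3 (lmFit, eBayes with a mean-variance trend, two-sided, genotype as the only term, 7 libraries), with Benjamini-Hochberg adjustment over the 12239 genes. The script was tested on simulated data. Library totals ran from 2613277 to 15464499 reads, so that 3 reads stood at 0.195 to 1.12 CPM. The GC correction used a natural spline of 5 degrees of freedom per library on the GC content of 1 GENCODE transcript per gene (12174 genes). Classes came from the translated longest coding sequence. The planned KRAB pattern missed genes known to carry the domain, so a wider one was set after the sequences, but before the counts by class, were seen. The wider one may miss such genes as well. C2H2 fingers were counted as 2 cysteines 2 to 4 residues apart, 12 residues and 2 histidines 3 to 5 apart. The named genes were the 10 largest rises and 10 largest falls past the threshold with C2-/- values wholly on one side of WT and a mean of at least 1 in the higher group, the 5 members highest in WT, the 5 largest in each direction past the threshold on both scales, and the role lists. *Zfp142*, *Zfp213*, *Zfp12*, *Zfp212*, *Zfp316*, *Zfp777*, *Zfp783* and *Zfp862-ps* lay outside that rule and were picked once their values were known. The alternatives were other filters, scalings, pseudocounts, weights, thresholds, GC and length corrections, a replicate block and leaving out each library.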

Additional observations from a re-analysis of the deposited data

Results flagged for a closer look

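In 17 of 67 named genes, 1 WT library lay apart from the other 3 by a gap over Dixon's 95% critical value, and it was WT replicate 4 in all 17. Chance flags about 1 in 20 groups, or 3.35 of 67. The genes share that library and its depth, so the 17 are not independent. WT replicate 4 was above the other WT libraries, on the log2 scale, for *Zfp959* (3.09), *Zfp207* (7.26), *Zfp706* (7.08), *Zfp764* (2.29), *Zfp961* (3.68), *Zfp281* (5.80) and *Zfp609* (5.45). It was below them for *Zfp953* (-3.14, at 0 reads), *Zfp219* (2.93), *Zfp771* (2.07), *Zfp775* (3.01), *Zfp651* (6.66), *Zfp773* (-1.55, at 1 read), *Zfp346* (3.63), *Zfp292* (3.61), *Zfp532* (4.12) and *Zfp644* (3.98). Without it *Zfp281* and *Zfp609* passed the threshold, with changes of 1.20 and 0.63.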

How the results depend on the processing

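The number of Zfp genes past the threshold (146: 98 higher, 48 lower) was within 1.5 times under voom, quantile normalization, median centring, a prior count of 2, library quality weights, no trend, no fold minimum and a filter at a mean log2 value of 0. At a mean of at least 3 there were 92, with 21 lower, 37 KRAB-like higher, 2 KRAB-like lower and 18 other coding lower. At an adjusted p under 0.01 there were 66 (48 higher, 18 lower), with 23 and 0 among KRAB-like and 25 and 17 among other coding members, 10 partner genes and 3216 of all genes. KRAB-like lower members numbered 3 under quantile normalization and 11 with quality weights, against 6.

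GC settings moved the counts by over 1.5 times, except the KRAB-like lower members, which numbered 5, 4 and 5 against 6 in 3 of the 4 settings. In the order total, higher, lower, KRAB-like higher and lower, and other coding higher and lower, the GC correction gave 40, 20, 20, 8, 5, 12 and 15. GC and length gave 39, 24, 15, 9, 2, 15 and 13. With a mean of at least 3 they were 31, 19, 12, 3, 4, 16 and 7, and without WT replicate 4, an alternative chosen after seeing the data, 49, 30, 19, 10, 5, 20 and 14. The partner genes past the threshold were 6, 6, 6 and 7 and all genes 2509, 2512, 2163 and 3128. The changes of *Zfp598* (0.49, 0.60, 0.49 and 0.46) and *Zfp335* (0.47, 0.56, 0.47 and 0.31) turned positive, and that of *Zfp148* negative (-0.37, -0.42, -0.37 and -0.59). *Zfp638* turned to -0.029, -0.065 and -0.029 in the first 3, *Zfp932* to -0.10 in the last, *Zfp423* to 0.91 with length and 0.84 at a mean of at least 3, and *Zfp467* to 1.08 in the last. The cause was not tested.

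Leaving out 1 library gave 97 to 155 Zfp genes, 69 to 105 higher and 27 to 54 lower. The lowest total and KRAB-like count (34 to 59 higher) came without WT replicate 3, and the lower members numbered 27, 29 and 28 without WT replicates 1, 2 and 3. KRAB-like lower members ran from 2 to 8, other coding from 34 to 46 higher and 23 to 45 lower, partner genes from 12 to 21 and all genes from 4095 to 6136.

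Replicate numbers did not pair the libraries: the deviations of same-numbered libraries correlated at 0.05, -0.06 and -0.05, and 0 of 3 pairs correlated best with each other. The replicate block, in which WT replicate 4 has no partner and drops out, left 133 Zfp genes (88 higher, 45 lower). With the GC correction it left 40 (26 higher, 14 lower), 6 and 2 KRAB-like, 20 and 12 other coding, 6 partner genes and 2911 of all genes, and *Zfp36* turned to 1.15, *Zfp598* to 0.46, *Zfp335* to 0.31, *Zfp148* to -0.59, *Zfp932* to -0.10 and *Zfp467* to 1.08. Count-based tests in other packages were planned and not run. With a median of 29.5 reads per member in C2-/-, the size of a change to or from few reads is uncertain.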
